A study of Homo sapiens with 12 samples.

Results

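The genes described here encode the enzymes that add methyl groups to histones (writers) and those that take them off (erasers), in HL-60, an established human cell line from acute myeloid leukemia. They were 40 genes listed by symbol for their role, out of 42157 genes in the count table. All 40 symbols had a row, and 39 were among the 13696 genes with enough reads to be tested. RNA was measured by sequencing of polyadenylated transcripts in 12 libraries, 3 replicates in each of 4 groups treated for 3 h. The groups received the vehicle DMSO, DNR at 1 µM, ML-792 at 0.5 µM, or the 2 drugs at these doses together (ML-792+DNR). DNR (daunorubicin) is an anthracycline that intercalates into DNA and blocks topoisomerase II, whereas ML-792 blocks the activating enzyme of SUMO, a modifier conjugated to many chromatin proteins. Per the study's methods the replicates came from independent experiments, all with this single cell line.

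Each library had 28.6 M to 46.5 M reads in genes. Levels are given in CPM, the reads of a gene per 1 M reads in genes after TMM scaling. Of the myeloid markers, MPO lay at 10090 to 12204 CPM, CTSG at 193 to 323, PRTN3 at 69.1 to 777, CD33 at 58.3 to 94.6 and AZU1 at 25.8 to 112, while ELANE, the neutrophil elastase gene, was nearly absent at 0.324 to 4.03 CPM. CD3E, HBB and EPCAM had 0 reads in all libraries, COL1A1 had at most 2, and PECAM1 lay at 2.02 to 3.08 CPM. Transcripts of the mitochondrial genome took 4.01% to 6.37% of the reads in the 4 libraries of replicate 1 and 2.49% to 3.48% in the others, so that counts are also given for replicates 2 and 3 alone. In bulk RNA, fewer cells with a transcript and less transcript per cell cannot be told apart.

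Histone methylation is written on lysines by SET domain enzymes and by DOT1L, and on arginines by the PRMT family. It is removed by KDM1A, a flavin-dependent oxidase, and by the larger family of Jumonji C oxygenases, which need iron and 2-oxoglutarate. The position of the lysine sets what the mark is known for. Methylation of histone H3 at lysine 4 (H3K4) marks promoters and enhancers, H3K36 and H3K79 mark transcribed gene bodies, H3K27 marks genes silenced by Polycomb repressive complex 2 (PRC2), and H3K9 marks heterochromatin. Several of these enzymes are mutated, fused or targeted by drugs in leukemia, among them KMT2A, SETD2, EZH2, DOT1L and KDM1A.

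The genes spanned a wide range of transcript levels in DMSO-treated cells. Per kb of transcript, the arginine methyltransferase gene PRMT1 had the highest level at 295 ± 16.5 CPM per kb (SD, n = 3), followed by PRMT5 at 130 ± 8.88 and KDM1A at 77.2 ± 2.55. The PRC2 genes EZH2 (61.4 ± 3.49), SUZ12 (56.2 ± 3.00) and EED (38.3 ± 2.91 CPM per kb) came next, followed by EHMT2 (24.7 ± 0.546). Of the 38 pairs of neighbours in this order, 26 had overlapping libraries, among them all pairs from KDM3B (15.7) down to KDM5A (10.5 CPM per kb), so that the order in that stretch is not resolved. The lowest levels were those of KDM7A (3.55), KDM6A (3.31), KDM4B (2.69) and KDM6B (1.70 ± 0.230 CPM per kb). Even KDM6B was counted with 254 to 756 reads per library, and PRMT1 with 12573 to 18956.

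**Figure D1:**
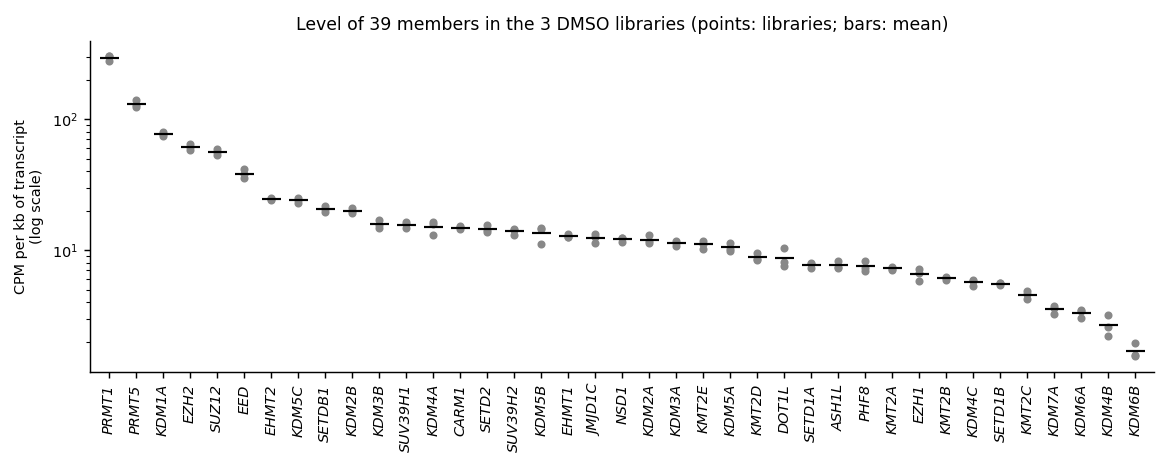
Level of the 39 tested genes in the DMSO libraries, in CPM per kb of the annotated canonical transcript on a log axis. Points are the 3 libraries and bars their mean; PRMT1 (295) and PRMT5 (130) stand at the top and KDM6B (1.70) at the bottom.

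The remaining gene, SETDB2, was listed with 0 reads in all 12 libraries. A count of 0 allows up to 0.0646 CPM in the deepest and 0.105 CPM in the shallowest library, counting error only. PHF11, its neighbour on chromosome 13, was likewise at 0, and the readthrough gene SETDB2-PHF11 had 3 reads in all. The cause of the 0 was not tested, and it is not read as a statement on expression.

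DNR alone lowered the transcripts of many of these genes and raised few. Against DMSO, 17 of 39 fell and 4 rose, where 15.7% of all tested genes were lower and 14.3% higher (adjusted p below 0.05, edgeR quasi-likelihood test). As shares of the 39 genes these were 43.6% and 10.3%. The median log2 change was -0.30, against 0.01 over all tested genes, and 28 of 39 values were below 0. Of the reads in genes, the 40 genes took 0.396% to 0.410% in the DMSO libraries and 0.324% to 0.361% in the DNR libraries. With replicates 2 and 3 only, 15 were lower and 3 higher, where 7.46% of all tested genes were lower and 6.43% higher. With the replicate number as a block, 21 were lower and 5 higher, where 21.8% of all tested genes were lower and 20.3% higher. The changes with DNR alone given below are without the block.

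**Figure D2:**
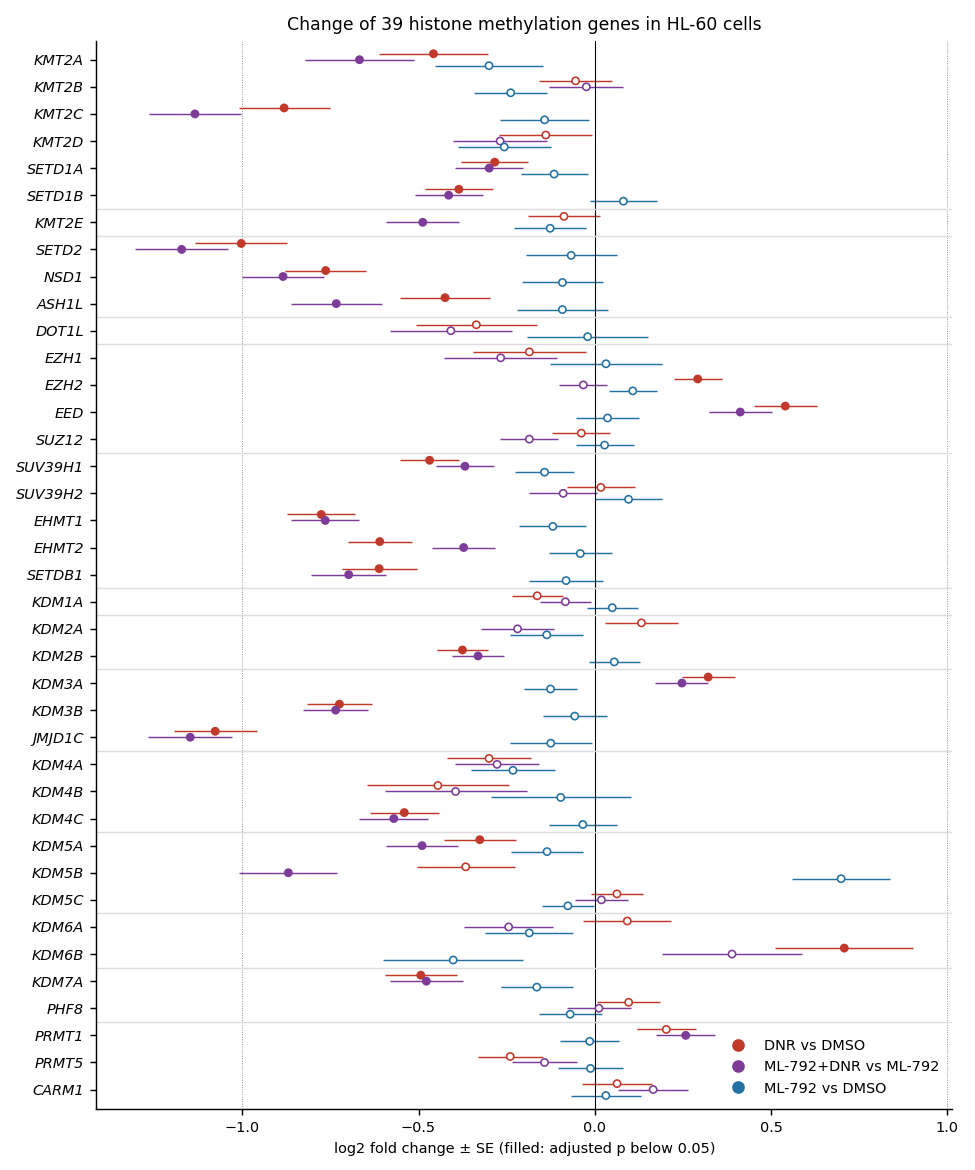
Log2 fold change ± SE of 39 genes in DNR vs DMSO (red), ML-792+DNR vs ML-792 (purple) and ML-792 vs DMSO (blue), with grey lines between role groups. Filled points have an adjusted p below 0.05; red and purple points lie left of 0 for most genes, with JMJD1C, SETD2 and KMT2C farthest, whereas no blue point is filled.

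Only 2 genes passed a 2-fold change as well, JMJD1C and SETD2, both lower, where 6.98% of all tested genes did so in either direction. JMJD1C, a Jumonji protein of the KDM3 family (chr10:64926981-65281610, minus strand, GRCh37), was at 116, 111 and 98.8 CPM in the DMSO replicates 1, 2 and 3, and at 48.4, 57.6 and 48.3 CPM with DNR. The groups stood well apart, and the fall was 2.11-fold (log2 -1.08 ± 0.12 SE, adjusted p = 2.51e-05). SETD2, the enzyme that trimethylates H3K36 behind elongating RNA polymerase II (chr3:47057918-47205603, minus strand, GRCh37), went from 133, 122 and 119 CPM to 54.0, 71.5 and 60.6 CPM. It too did not overlap between groups and lay right at the fold limit (log2 -1.003 ± 0.13, adjusted p = 9.52e-05). When single libraries were left out its change ranged from -1.12 to -0.91, on both sides of that limit. KMT2C, an H3K4 methyltransferase of enhancers (chr7:151832007-152133729, minus strand, GRCh37), lay just outside that limit, at 82.5, 77.5 and 71.2 CPM against 36.1, 45.4 and 44 CPM (log2 -0.88 ± 0.13, adjusted p = 0.000230). For all 3 genes the fall was smaller without replicate 1, with log2 changes of -0.995 for JMJD1C, -0.87 for SETD2 and -0.74 for KMT2C in replicates 2 and 3. Each stayed past the adjusted p threshold there, and none of the 3 reached 2-fold.

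**Figure D3:**
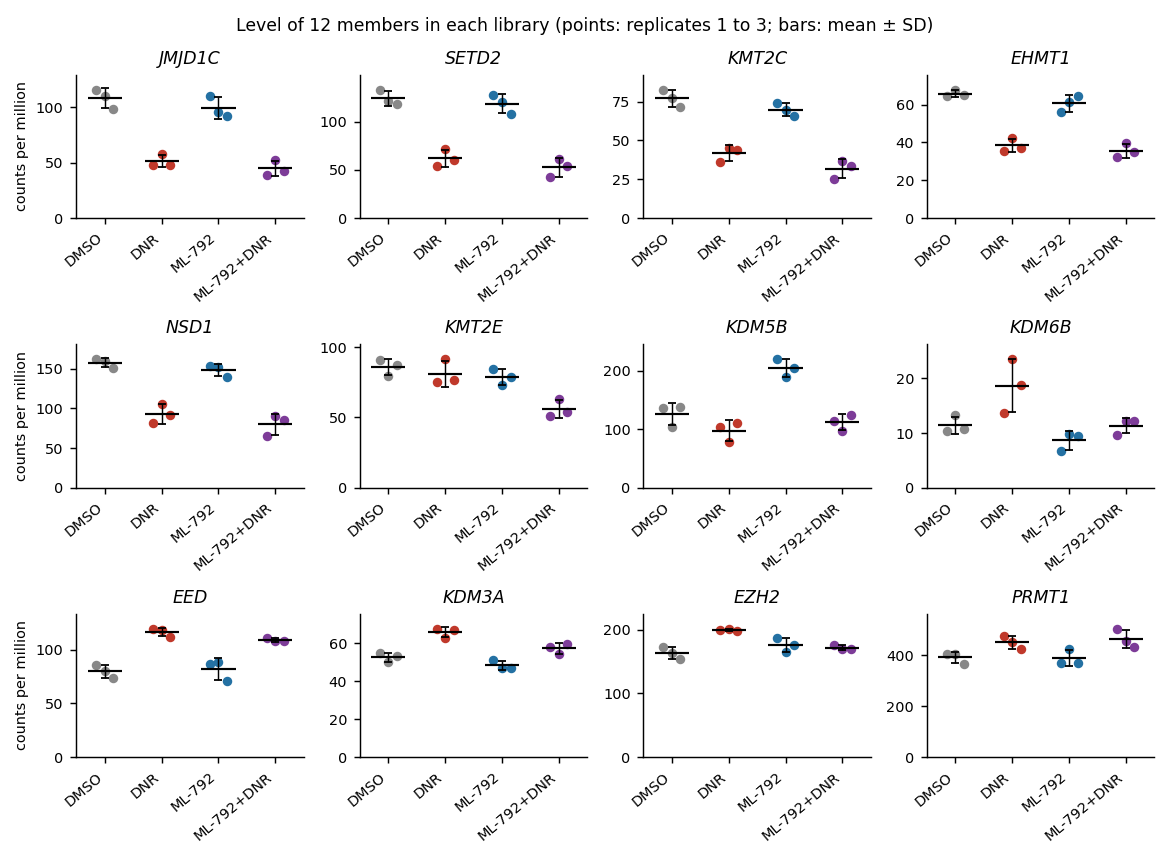
CPM of 12 genes in each library (points, replicates 1 to 3 from left to right) with mean and SD for the 4 groups, each panel starting at 0. The DNR and ML-792+DNR libraries of JMJD1C, SETD2, KMT2C, EHMT1 and NSD1 lie below all DMSO and ML-792 libraries, EED shows the opposite order, and KDM5B is highest with ML-792 alone.

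The promoter windows of these 3 genes, which had the largest falls with DNR alone, are shown with that of KDM6B, which had the largest rise. Each runs from 250 bases before to 50 after the most upstream start that RefSeq lists (build GRCh38.p14), at chr10:63521841-63522140 for JMJD1C, chr3:47164064-47164363 for SETD2, chr7:152435954-152436253 for KMT2C (all minus strand) and chr17:7833967-7834266 for KDM6B (plus strand). Capitals mark matches, on either strand, to an NF-kB core (GGANTTTCC), an AP-1 site (TGANTCA), a CRE (TGACGTCA) or an E-box (CACGTG).
JMJD1C: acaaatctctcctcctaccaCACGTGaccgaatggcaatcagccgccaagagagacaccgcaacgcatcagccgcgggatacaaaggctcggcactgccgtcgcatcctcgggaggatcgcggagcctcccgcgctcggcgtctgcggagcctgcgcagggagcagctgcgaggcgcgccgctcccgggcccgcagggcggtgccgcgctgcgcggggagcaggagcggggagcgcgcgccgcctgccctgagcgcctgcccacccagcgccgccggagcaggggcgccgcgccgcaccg
SETD2: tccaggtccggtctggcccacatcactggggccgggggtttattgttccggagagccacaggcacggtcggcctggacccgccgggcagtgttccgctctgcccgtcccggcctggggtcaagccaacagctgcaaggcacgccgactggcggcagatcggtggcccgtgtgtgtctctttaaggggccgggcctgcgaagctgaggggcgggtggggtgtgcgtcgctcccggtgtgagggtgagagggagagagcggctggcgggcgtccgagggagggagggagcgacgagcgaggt
KMT2C: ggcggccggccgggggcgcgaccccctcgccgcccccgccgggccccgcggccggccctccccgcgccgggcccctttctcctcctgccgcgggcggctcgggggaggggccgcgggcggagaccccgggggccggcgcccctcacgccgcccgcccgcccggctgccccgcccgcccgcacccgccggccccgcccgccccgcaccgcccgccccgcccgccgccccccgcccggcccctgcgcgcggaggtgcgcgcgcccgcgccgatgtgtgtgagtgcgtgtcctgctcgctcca
KDM6B: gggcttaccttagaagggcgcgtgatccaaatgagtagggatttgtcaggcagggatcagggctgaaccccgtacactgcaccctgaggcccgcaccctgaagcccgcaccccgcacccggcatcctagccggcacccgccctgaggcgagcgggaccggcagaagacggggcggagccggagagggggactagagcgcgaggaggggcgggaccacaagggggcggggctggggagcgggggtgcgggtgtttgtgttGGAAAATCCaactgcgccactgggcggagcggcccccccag

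JMJD1C held an E-box match, SETD2 and KMT2C no match, and KDM6B an NF-kB core match. Of the 38 genes with a window (all but SETD1B and DOT1L), the E-box was in 8, or 21.1%, against 7.41% of 27305 promoters. The NF-kB core was in 1 (2.63% against 1.67%), the AP-1 site in 2 (5.26% against 7.72%) and the CRE in 1 (2.63% against 1.97%). The windows had a median GC content of 66.7%, against 58.3% over all promoters. The 3 genes shown for their falls had 70.3% (SETD2), 74.3% (JMJD1C) and 88.7% (KMT2C). The other genes with a window that fell with DNR alone ranged from 49% (SETDB1) to 79.3% (EHMT1). Those that rose ranged from 52.3% (EED) to 74.7% (EZH2). The E-box letters hold a CpG. The ratio of observed to expected CpG had a median of 0.899 in the windows of these genes and 0.577 over all promoters. Whether the E-box share goes with CpG content was not tested. The motif matches describe letters in the window and show no binding.

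Among the H3K36 writers all 3 fell with DNR, where 15.7% of all tested genes were lower. NSD1, which dimethylates H3K36, went from 162, 160 and 152 CPM to 82.0, 106 and 91.1 CPM, a 1.70-fold fall (log2 -0.76 ± 0.12, adjusted p = 0.000296). ASH1L, which also methylates H3K36, changed by -0.42 ± 0.13, and its call (adjusted p = 0.0238) was lost without DMSO replicate 2 or DNR replicate 1. Of the 6 H3K4 methyltransferase genes, KMT2A (-0.46 ± 0.15), KMT2C, SETD1A (-0.28 ± 0.10) and SETD1B (-0.39 ± 0.10) fell, whereas KMT2B (-0.05 ± 0.10) and KMT2D (-0.14 ± 0.13) did not pass the test. The KMT2A call (adjusted p = 0.0387) was lost when any one of the 3 DMSO libraries or of DNR replicates 1 and 3 was left out, and the SETD1A call (0.0384) without DMSO replicates 1 or 2 or DNR replicates 1 or 3. KMT2E, a SET domain protein of this family with no known enzyme activity, lay at -0.09 ± 0.10, and DOT1L, the H3K79 writer, at -0.34 ± 0.17 (adjusted p = 0.161).

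The H3K9 writers also fell, 4 of 5 tested, where 15.7% of all tested genes were lower. EHMT1, which with its partner EHMT2 dimethylates H3K9, went from 64.7, 67.7 and 64.8 CPM in DMSO to 35.6, 42.5 and 37.1 CPM with DNR (log2 -0.78 ± 0.10, adjusted p = 6.69e-05). EHMT2 (-0.61 ± 0.09) and SETDB1 (-0.61 ± 0.11), the latter known for silencing retroelements, fell alike. SUV39H1, which trimethylates H3K9 in pericentric heterochromatin, fell by 0.47 ± 0.08 on the log2 scale, and its paralog SUV39H2 lay at 0.02 ± 0.10. The log2 ratio of SUV39H2 to SUV39H1 was 0.003 ± 0.025 (SD) in DMSO and 0.48 ± 0.17 with DNR, and the libraries of the 2 groups did not overlap.

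PRC2 was the group of writers with rises. EED, the subunit that reads H3K27me3 and stimulates the enzyme, went from 86.2, 79.8 and 74.0 CPM to 119, 118 and 112 CPM, all DNR libraries above all DMSO libraries (log2 0.54 ± 0.09, adjusted p = 0.000552). EZH2, the catalytic subunit of dividing cells, went from 172, 163 and 153 CPM to 200, 201 and 198 CPM (log2 0.29 ± 0.07, adjusted p = 0.00569). The scaffold SUZ12 (-0.04 ± 0.08) and the second catalytic subunit EZH1 (-0.19 ± 0.16) did not pass the test. The ratio of EZH2 to EZH1 had a mean log2 of 2.425 ± 0.15 in DMSO and 2.91 ± 0.25 with DNR, without overlap of the libraries.

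Among the erasers, 6 of 16 fell and 2 rose, where 15.7% of all tested genes were lower and 14.3% higher. KDM6B (JMJD3), an H3K27 demethylase known as an inducible gene of myeloid cells, went from 10.4, 13.2 and 10.7 CPM in DMSO to 13.7, 23.5 and 18.9 CPM with DNR (log2 0.71 ± 0.20, adjusted p = 0.0155). Its lowest DNR library was barely above the highest DMSO library, and the call was lost without DMSO replicates 1 or 3 or DNR replicate 2. KDM6A, the X-linked paralog, lay at 0.09 ± 0.12. KDM3A, an H3K9 demethylase, went from 54.7, 50.04 and 53.1 CPM to 67.4, 62.9 and 67.0 CPM (log2 0.32 ± 0.08, adjusted p = 0.00596), a call that missed the threshold with replicates 2 and 3 only (adjusted p = 0.0505). Its relatives JMJD1C and KDM3B (-0.72 ± 0.09) moved the other way, so that the 3 genes of the KDM3 family parted.

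The other falls were in KDM2B, which reads CpG islands and demethylates H3K36 (-0.38 ± 0.07), KDM4C, which acts on H3K9me3 and H3K36me3 (-0.54 ± 0.10), KDM5A, an H3K4me3 demethylase (-0.33 ± 0.10), and KDM7A, which acts on H3K9 and H3K27 (-0.49 ± 0.10). The KDM5A call was lost without DMSO replicate 1 or DNR replicate 1. KDM1A (-0.16 ± 0.07), KDM2A (0.13 ± 0.10), KDM4A (-0.30 ± 0.12), KDM4B (-0.45 ± 0.20), KDM5B (-0.37 ± 0.14), KDM5C (0.06 ± 0.07) and PHF8 (0.10 ± 0.09) did not pass the test. The log2 ratio of KDM2B to KDM2A went from 0.26 ± 0.13 in DMSO to -0.25 ± 0.09 with DNR and that of KDM7A to PHF8 from -0.54 ± 0.07 to -1.14 ± 0.17, both without overlap. Of the other 4 paralog pairs compared, SETD1B to SETD1A went from 0.03 ± 0.03 to -0.07 ± 0.06. Its libraries nearly touched (lowest in DMSO 0.003, highest with DNR -0.008). The pairs KDM6B to KDM6A (-0.82 ± 0.29 and -0.24 ± 0.39), KDM4B to KDM4A (-2.18 ± 0.44 and -2.31 ± 0.21) and KDM5B to KDM5A (0.15 ± 0.18 and 0.11 ± 0.27) overlapped. None of the paralog ratios was tested, and how often other gene pairs separate this way was not measured. The 3 arginine methyltransferase genes did not pass the test either, with PRMT1 at 0.20 ± 0.08, PRMT5 at -0.24 ± 0.09 and CARM1 at 0.06 ± 0.10. A large part of KDM4A (40.2% of its exonic bases) and KMT2A (18.3%) is shared with another annotated gene on the same strand, so that their counts are less certain.

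ML-792 alone changed none of the 39 genes at an adjusted p below 0.05, in a comparison where 0.183% of all tested genes were higher and 0.0584% lower. An unadjusted p below 0.05 was reached by 2 of them, and by 697 of the 13696 tested genes. KDM5B, an H3K4me3 demethylase chosen here after its values were seen, was at 136, 104 and 138 CPM in DMSO and at 219, 189 and 204 CPM with ML-792, without overlap (log2 0.70 ± 0.14, adjusted p = 0.0620). It lay at 103, 78.1 and 111 CPM with DNR and at 114.5, 97.2 and 124 CPM with both drugs. With the replicate number as a block, its change was 0.71 ± 0.07 (adjusted p = 0.000788). This was the only call of that fit among the 39 genes, where 0.759% of all tested genes were higher and 0.365% lower. KDM5B was also called by DESeq2 and without the count filter, and in the fits without DNR replicate 2 or ML-792+DNR replicate 2. The second was KMT2B at -0.24 ± 0.10 (adjusted p = 0.925). The log2 ratio of KDM5B to KDM5A was 0.15 ± 0.18 in DMSO, 1.00 ± 0.11 with ML-792, 0.11 ± 0.27 with DNR and 0.62 ± 0.28 with both drugs.

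The DNR change was then measured in cells that also received ML-792, a comparison (ML-792+DNR vs ML-792) that shares no library with DNR vs DMSO. The 2 comparisons are still not independent. Deviations of same-number libraries went together (r of 0.481 to 0.711 between DNR and ML-792+DNR), and all 12 libraries shared one estimate of the spread. Here 19 of 39 genes fell and 3 rose, against 17.4% lower and 16.3% higher of all tested genes, with a median log2 change of -0.33 (0.02 over all). All 17 genes that fell with DNR alone also fell here, or 100%, whereas of all tested genes that fell with DNR alone 78.7% did so. Of the 4 that rose with DNR alone, EED and KDM3A rose here too, whereas of all tested genes that rose with DNR alone 77.3% did so. The sign was the same in 35 of 39 genes (89.7%, against 83.8% of all tested genes). With replicates 2 and 3 only, 17 fell and 1 rose, against 7.24% lower and 5.52% higher of all tested genes. Leaving out single libraries gave 18 to 21 falls and 1 to 3 rises.

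A fall past 2-fold was seen in 3 genes, where 6.34% of all tested genes passed it in either direction. JMJD1C was at 110, 95.7 and 92.3 CPM with ML-792 and at 38.95, 52.7 and 42.95 CPM with both drugs (log2 -1.15 ± 0.12, adjusted p = 2.61e-05). SETD2 went from 128, 120 and 108 CPM to 42.3, 61.5 and 54.1 CPM (log2 -1.17 ± 0.13, adjusted p = 4.33e-05). KMT2C went from 73.95, 69.8 and 65.7 CPM to 25.1, 36.7 and 33.5 CPM (log2 -1.13 ± 0.13, adjusted p = 5.07e-05). None of the 3 overlapped between groups, but neither did KMT2D, KDM2A, KDM4A and CARM1, which were not called here. How often all tested genes separate in this comparison was not measured. In each of the 3 genes past 2-fold, replicate 1 was the lowest of the ML-792+DNR libraries. NSD1 followed, from 153, 152 and 139 CPM to 65.0, 90.4 and 85.1 CPM (log2 -0.88 ± 0.12, adjusted p = 0.000131), then KDM5B at -0.87 ± 0.14 and EHMT1 at -0.76 ± 0.10.

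The calls that were not made with DNR alone were the falls of KMT2E (-0.49 ± 0.10) and KDM5B and the rise of PRMT1 (0.26 ± 0.08, adjusted p = 0.0298). PRMT1, the main asymmetric arginine methyltransferase, was at 368, 424 and 371 CPM with ML-792 and at 503, 454 and 433 CPM with both drugs, and the lowest of the latter was just above the highest of the former. In DMSO it was at 404.5, 404 and 366 CPM and with DNR at 475, 451 and 426 CPM. EED went from 86.9, 88.7 and 70.5 CPM to 111, 108 and 108 CPM (log2 0.41 ± 0.09, adjusted p = 0.00344). KDM3A went from 51.2, 46.8 and 46.7 CPM to 58.0, 54.1 and 59.7 CPM (log2 0.25 ± 0.08, adjusted p = 0.0225). The calls of PRMT1 and KDM3A were lost when single libraries were left out, 3 libraries for PRMT1 (ML-792 replicates 1 and 3 and ML-792+DNR replicate 1) and 4 for KDM3A (ML-792 replicates 2 and 3 and ML-792+DNR replicates 1 and 3). The fall of SETD1A (-0.30 ± 0.10, adjusted p = 0.0283) was lost without ML-792 replicates 2 or 3 or ML-792+DNR replicate 1. EZH2 (-0.03 ± 0.07) and KDM6B (0.39 ± 0.20, adjusted p = 0.150) did not pass the test. With the replicate number as a block, 23 genes fell and 4 rose, against 23.3% lower and 23.4% higher of all tested genes. The additions were KMT2D, DOT1L, EZH1 and SUZ12 among the falls and KDM6B among the rises (0.40 ± 0.11, adjusted p = 0.0139).

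Whether the DNR change differed with and without ML-792 was tested as an interaction. None of the 39 genes passed, nor did any of the tested genes (0% called in either direction). An unadjusted p below 0.05 was reached by 493 of the 13696 tested genes and by 4 of the 39. Those 4 were EZH2 (-0.32 ± 0.10), KMT2E (-0.40 ± 0.15), KDM5B (-0.50 ± 0.20) and KDM2A (-0.35 ± 0.15), each with an adjusted p of 0.999. For JMJD1C the difference was -0.07, with a 95% interval from the SE of -0.40 to 0.25, and for SETD2 it was -0.17 (-0.53 to 0.19). DESeq2 and the fit with the block also called 0 of the 39. Of all the genes they tested, DESeq2 called 0.0262% higher and 0.0961% lower, and the block 0% and 0.00730%.

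Against DMSO, both drugs together lowered 22 of the 39 genes and raised 2, where 18.4% of all tested genes were lower and 17.0% higher. This comparison shares its DMSO libraries with that of DNR alone. The median log2 change was -0.42 (0.02 over all tested genes), and 3 genes passed 2-fold, again lower, where 6.48% of all tested genes did. They were KMT2C (2.42-fold, log2 -1.28 ± 0.13, adjusted p = 1.83e-05), JMJD1C (2.41-fold, log2 -1.27 ± 0.12, adjusted p = 9.08e-06) and SETD2 (2.36-fold, log2 -1.24 ± 0.13, adjusted p = 2.32e-05). NSD1 (-0.98 ± 0.12) and KMT2A (-0.97 ± 0.16) came close to 2-fold.

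By role, all 3 H3K36 writers, 5 of 6 H3K4 writers (all but KMT2B) and 4 of 5 tested H3K9 writers fell with both drugs. Of all tested genes, 18.4% were lower. Of the erasers, KDM2A, KDM2B, KDM3B, JMJD1C, KDM4A, KDM4C, KDM5A, KDM6A and KDM7A fell, with KDM6A at -0.43 ± 0.13 and KDM2A at -0.36 ± 0.10. The calls of KDM6A and KDM2A were each lost without DMSO replicate 1 or ML-792+DNR replicate 1, and that of SETD1B without ML-792+DNR replicate 1. The rises were those of EED (0.45 ± 0.09, adjusted p = 0.00188) and PRMT1 (0.24 ± 0.08, adjusted p = 0.0365), and the PRMT1 call was lost without any single one of 6 libraries (each DMSO replicate, DNR replicate 2, and ML-792+DNR replicates 1 and 2). KDM6B was at 9.71, 12.1 and 12.1 CPM with both drugs, against 10.4, 13.2 and 10.7 CPM in DMSO (log2 -0.01 ± 0.20, adjusted p = 0.968). With replicates 2 and 3 only, 18 genes were lower and 1 higher, where 9.09% of all tested genes were lower and 6.40% higher. With the replicate block, 28 were lower and 3 higher, where 24.4% of all tested genes were lower and 24.5% higher. The block added KMT2B, DOT1L, EZH1, SUZ12, KDM4B and PRMT5 to the falls and CARM1 to the rises.

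Adding ML-792 to DNR changed 1 of the 39 genes, KMT2E, in a comparison (ML-792+DNR vs DNR) where 0.489% of all tested genes were lower and 0.256% higher. KMT2E was at 91.1, 79.8 and 87.1 CPM in DMSO, 75.1, 91.3 and 76.5 CPM with DNR, 84.7, 72.9 and 78.8 CPM with ML-792 and 51.0, 63.2 and 54.2 CPM with both. It was lowest in all 3 libraries with both drugs, a 1.44-fold fall from DNR alone (log2 -0.53 ± 0.10, adjusted p = 0.0369). The call was lost when any one of DMSO replicates 1 and 3, the 3 DNR replicates and ML-792+DNR replicates 1 and 3 was left out, with replicates 2 and 3 only (log2 -0.51, adjusted p = 0.298), and with only the libraries of these 2 groups.

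With the replicate number as a block, 2.29% of all tested genes were lower in this comparison and 1.65% higher. Of the 39 genes, 6 fell and none rose. Beside KMT2E these were KDM6B (-0.70 ± 0.11, adjusted p = 0.00613), KDM2A (-0.49 ± 0.10, adjusted p = 0.0184), KDM6A (-0.52 ± 0.11, adjusted p = 0.0249), KMT2D (-0.38 ± 0.09, adjusted p = 0.0359) and EZH2 (-0.22 ± 0.05, adjusted p = 0.0464). Without the block their adjusted p-values were 0.125 for KDM6B, 0.0502 for KDM2A, 0.0798 for KDM6A, 0.224 for KMT2D and 0.185 for EZH2. In that unblocked fit 12 of the 39 genes had an unadjusted p below 0.05, as did 1768 of the 13696 tested genes. DESeq2 called 4 of the 39 genes lower, where 1.92% of the genes it tested were lower.

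Partners and further enzymes of histone methylation, a list of 49 genes of which 48 were tested (all but RIOX1), held both falls and rises. With DNR alone 12 fell (25.0%, against 15.7% of all tested genes) and 6 rose (12.5%, against 14.3%), with a median log2 change of -0.05 (0.01 over all tested genes). With both drugs against ML-792 15 fell (31.2%, against 17.4%) and 6 rose (12.5%, against 16.3%), with a median of -0.03. PRDM2, an H3K9 methyltransferase of the PR domain family, was the only one past 2-fold with DNR, at 36.1, 32.9 and 32.1 CPM in DMSO and 77.0, 66.6 and 68.35 CPM with DNR (log2 1.07 ± 0.08, adjusted p = 1.69e-06). The gene of the PRC2 cofactor JARID2 was the only one past 2-fold in ML-792+DNR vs ML-792, at 153, 146.5 and 145.5 CPM with ML-792 and 61.9, 84.9 and 64.95 CPM with both drugs (log2 -1.07 ± 0.10, adjusted p = 1.53e-05). With both drugs against DMSO 15 fell (31.2%, against 18.4%) and 6 rose (12.5%, against 17.0%), none past 2-fold. None passed the test with ML-792 alone (5 with an unadjusted p below 0.05), in ML-792+DNR vs DNR (7) or in the interaction (4). Over all 13696 tested genes, the counts with an unadjusted p below 0.05 were 697, 1768 and 493. Around PRC2, the cofactor genes JARID2 (-0.53 ± 0.10), AEBP2 (-0.90 ± 0.19), MTF2 (-0.31 ± 0.09) and PHF19 (-0.38 ± 0.08) fell with DNR alone, whereas RBBP7, which encodes a histone-binding subunit, rose (0.27 ± 0.07).

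Of the 17 genes that fell with DNR alone, 9 were long ones, in a data set where long genes fell more often in general. The 14 genes with a span of at least 100 kb included 9 falls and 0 rises with DNR alone (64.3%, median log2 change -0.44), while of all tested genes of that span 25.4% fell and 6.77% rose (median -0.14). With both drugs against DMSO, 12 of the 14 fell (85.7%, median -0.62), against 37.4% of all tested genes of that span. Among the 9 genes under 30 kb, 4 fell and 1 rose with DNR alone (median -0.24), against 12.6% and 17.1% of all tested genes under 30 kb (median 0.09). The 16 genes of 30 to 100 kb had 4 falls (25.0%, against 17.0% of all tested genes of that span) and 3 of the 4 rises (18.8%, against 14.5%). In each of the 3 span classes the median of these genes was therefore below that of all tested genes of the same class, as the plot of change by gene span shows.

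**Figure D4:**
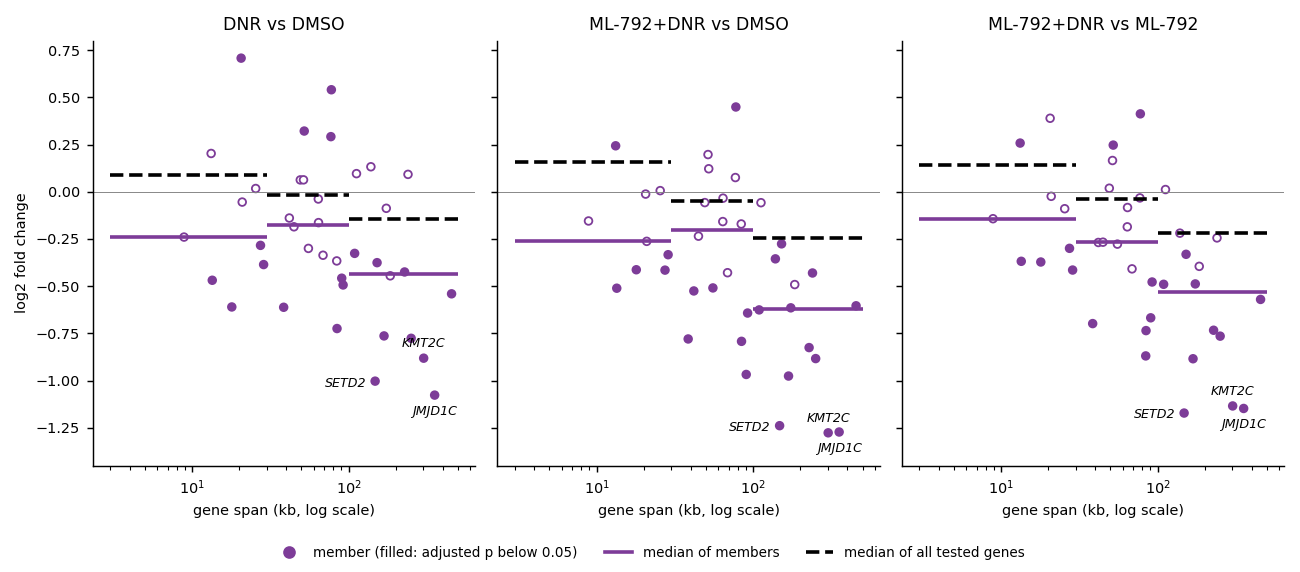
Log2 fold change of the 39 genes against gene span in kb (log axis) in 3 comparisons with DNR treatment; filled points have an adjusted p below 0.05. Solid and dashed lines give the median of these genes and of all tested genes in the classes under 30, 30 to 100 and at least 100 kb, and the solid line is below the dashed one in each class and comparison.

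The rank correlation of the log2 change with span across the 39 genes was -0.39 with DNR alone and -0.57 with both drugs against DMSO, and across the 12422 tested genes with a span -0.20 and -0.34. Transcripts of these genes were also long, with a median of 5.99 kb against 3.11 kb over all tested genes, and the correlation with transcript length was similar in size (-0.37 and -0.63, against -0.22 and -0.36). Genes are not independent replicates, and span and transcript length move together. Among genes with a transcript of at least 6 kb, a split added after the values were seen, 6 of 10 genes of at least 100 kb fell with DNR alone (60.0%), against 33.1% of 940 tested genes. What part of the falls goes with length was not tested.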

How the data were processed

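RNA was sequenced in 12 libraries of HL-60 cells (TruSeq Stranded mRNA, single-end 50-base reads per the study's methods). Alignment by the authors used TopHat2 2.1.1 (with Bowtie2 2.3.5.1) against hg19 (GRCh37p13), and HTSeq 0.11.1 gave gene counts. The deposited raw counts were the input here. For the counting, strand setting and annotation release are not given in the sources used here. Counts of overlapping, antisense and near-identical genes are therefore uncertain. A deposited table of normalized values and the authors' table of DESeq2 comparisons were not used.

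Of the records, 65.3% to 67.4% were in genes, and the counter's lines for other reads (26.6% to 29.2% not unique, 3.04% to 3.77% outside genes, 2.26% to 2.83% ambiguous) were left out. After filterByExpr of edgeR (grouped, at least 10 reads and 15 in total), the quasi-likelihood test of edgeR 4.0.16 (R 4.3.3) was fitted with a group term to all 12 libraries, with TMM factors of 0.954 to 1.04. Calls required a p-value adjusted by Benjamini-Hochberg over 13696 genes of less than 0.05, and a second count also required 2-fold. Each treatment was compared with DMSO and ML-792+DNR with each single drug, and the interaction made 6 tests per gene. CPM use TMM-scaled library sizes. An exact permutation test of 3 against 3 libraries cannot go below p = 0.1 and was not used. The fit was tested on simulated data. One of the marker genes is not reported here. Gene spans, coordinates and canonical transcript lengths came from GENCODE v44 on GRCh37, promoter windows from RefSeq on GRCh38.p14.

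The members and the other gene lists were chosen with earlier results of these data known. Values in every library are given for genes past 2-fold and the 4 highest and 4 lowest changes among the called genes of a comparison. All 40 genes are named, and the others are given by role. Alternatives were DESeq2 1.42.0, limma 3.58.1 voom, median-of-ratios factors, library size only, no filter, a replicate block, a floor of 1 CPM on the mean, only the groups compared, replicates 2 and 3 only and leaving out each library.

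Deviations of libraries from their group means were correlated across genes to check the replicate numbers as pairs. The 18 pairs with the same number had r of 0.0559 to 0.711 and the 36 with different numbers -0.600 to 0.159. Every same-number pair was above 0.1 in ML-792 vs DMSO and in the comparisons of ML-792+DNR with DMSO, DNR and ML-792, for which blocked values are given beside the results they change. In DNR vs DMSO the same-number r were 0.0841, 0.299 and 0.452, and the different-number r were at most 0.0173. A pairing may therefore hold there too, while the reported changes of that comparison and of the interaction are unblocked.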

Additional observations from a re-analysis of the deposited data

How the results depend on the processing

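Over 4875 refits of single genes under the alternatives, no change that was called as reported turned its sign (0 of 1428), while values that were not called did so in 130 of 3447. A call was lost in 70 and gained in 82 refits. With a minimum of 2-fold, no rise was left in DNR vs DMSO, ML-792+DNR vs DMSO or ML-792+DNR vs ML-792 (0 each), and the falls numbered 2, 3 and 3, with 0 in ML-792+DNR vs DNR. For ML-792 vs DMSO the count of rises was 1 (KDM5B) without a filter, by DESeq2 and with the replicate block. Of all tested genes, 0.266%, 0.553% and 0.759% rose in these fits. The 2 rises with both drugs against DMSO became 1 without a filter, with the compared groups only and with replicates 2 and 3 only. Of all tested genes, 9.86%, 17.1% and 6.40% rose in these fits. The 3 rises in ML-792+DNR vs ML-792 became 1 with the compared groups only and with replicates 2 and 3 only, where 11.4% and 5.52% of all tested genes rose. The single fall in ML-792+DNR vs DNR was the least stable count, with 2 by median-of-ratios factors, 5 without a filter, 2 at a mean of at least 1 CPM, 4 by DESeq2, 6 with the replicate block, and 0 with the compared groups only and with replicates 2 and 3 only. Of all tested genes, 0.489% fell in that comparison as reported, 0.548% by median-of-ratios factors, 0.533% without a filter and 0.924% at 1 CPM. The share was 1.92% by DESeq2, 2.29% with the block, 0.0992% with the compared groups only and 0.00727% with replicates 2 and 3 only. Leaving out single libraries gave 0 to 1 rises with ML-792, 1 to 2 rises with both drugs against DMSO, 0 to 2 falls in ML-792+DNR vs DNR and 1 to 3 rises in ML-792+DNR vs ML-792. The falls with DNR alone ranged from 13, without DNR replicate 1, to 18. Of all tested genes, 9.95% were lower without DNR replicate 1 and 15.5% to 16.9% in the fits with 18 falls. With the block there were 21 falls and 5 rises, where 21.8% of all tested genes were lower and 20.3% higher. The lowest same-number r of that comparison was 0.0841, below the cut of 0.1. Beyond the genes named with the results, the block changed no other call in the paired comparisons. The cause of these shifts was not tested. The fit with the compared groups only was not possible for the interaction, which needs all groups.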
